A study of Rattus norvegicus with 23 samples.

Results

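The genes described here are 35 genes that mark endothelial cells, the cells lining every blood and lymphatic vessel and the chambers of the heart. They were chosen by symbol, and 32 of the 35 had a row in the table of values per library (10723 genes) and in both deposited comparison tables (11283 genes each). Heg1, Ptprb and Mmrn2 had none, and their expression was not analysed here. All 32 passed the filter on low values. Messenger RNA came from the myocardium of Sprague-Dawley rats in which the left coronary artery had been tied off to make a myocardial infarction (MI), or that had the same infarction and later an operation to implant a device called TRD in the labels (MI+TRD). Every group therefore carries an infarct, and none is uninjured. Values per library came from 6 MI and 6 MI+TRD samples at 12 weeks. The 6-week groups (6 MI and 5 MI+TRD samples) are known here only from the comparison table that the authors deposited. The treatment labels give the weeks as post op MI surgery or post op MI+TRD surgery. For MI+TRD these treatment labels do not name the operation from which the weeks run. The labels do not say what the device does, which region of the heart was taken, or the age or sex of the rats.

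Endothelial cells keep their identity through a small set of transcription factors of the ETS family (Erg, Fli1, Ets1) and the SoxF group (Sox7, Sox17, Sox18). Their surface carries receptors for vascular endothelial growth factor (VEGF), angiopoietins, BMP9 and BMP10, Notch ligands, apelin and sphingosine-1-phosphate, and their contacts are built from VE-cadherin, claudin-5 and related adhesion proteins. In heart muscle most of these cells form capillaries beside the cardiomyocytes. Several of the 32 genes are also known from other cells: Pecam1 and Vwf from platelets, Fli1, Ets1 and Icam2 from leukocytes, and Prox1 from lymphatic endothelium and cardiomyocytes.

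The libraries held 7197118 to 10304156 reads as recovered from the deposited values, and apart from Plvap every one of the 32 genes had at least 59 reads in every library. Values are normalized counts in the authors' scale, and they cannot be compared between genes because transcript lengths were not used here. The 9 measured cardiomyocyte markers summed to 25790.7 to 53934.7 per library. Libraries differed in other tissue too: the 6 atrial markers summed to 48.1 to 11802 per library, and the 10 leukocyte markers to 458 in MI+TRD replicate 6 against 38.2 to 94.6 in the other libraries of both groups. MI+TRD replicates 1, 4 and 5 stood apart in 1 alpha-globin gene, chosen after its values were seen (Hba2 between 88.3 and 464.7 against 0.498 to 25.7 in the other 9 libraries), and in genes without a read (114 to 178 against 13 to 75). The other red cell genes did not all follow Hba2: the 6 measured summed to 202 to 772 in these 3 libraries, 240 to 264 in MI+TRD replicates 2, 3 and 6 and 96.0 to 429 in MI, and the beta-globin gene Hbb was at 83.2 in replicate 1, below every other MI+TRD library. Of 8 epicardial and mesothelial markers 6 were higher in MI+TRD at an unadjusted limma p below 0.05 (2.80% of all genes were), with a median log2 fold change of 1.32, and 6 or 7 were higher under each of the 5 other scalings and count models. Their sum was 22.1 to 37.3 in MI and 27.7 to 109.7 in MI+TRD, and their part in the endothelial values was not tested. In whole tissue, fewer endothelial cells and less RNA of a gene per cell cannot be told apart.

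At 12 weeks, most endothelial genes were centred slightly below the MI level in MI+TRD, by about as much as genes at large. The median log2 fold change of the 32 was −0.18, against −0.14 over the 10655 genes tested, on the log2(value + 0.208) scale, where changes of scarce genes come out too small. Fold changes lay below 0 for 26 of the 32 (81.2%, against 67.8% of all genes). None of the 32 passed an adjusted p of 0.05 with limma, as was the case for all genes (0% called), nor with edgeR or DESeq2 on recovered reads, where DESeq2 called 21 genes outside the list. At an unadjusted limma p below 0.05, 9 of the 32 were lower (28.1%, against 19.1% of all genes) and 0 were higher (against 2.80%). The share of all genes lower at that p differed with genomic span, the distance from a gene's start to its end. Among the 15 endothelial genes spanning up to 12 kb, 6 were lower, against 33.0% of all genes of such span. Among the 17 longer ones 3 were lower, against 12.2% of all longer genes. With the libraries rescaled by median ratios, 1 of the 32, Egfl7, was lower at that p (3.12%, against 8.24% of all genes) and 0 were higher (against 7.49%), and 878 genes in all were lower and 798 higher, in place of 2033 and 298. The sum of all deposited values per library was also lower in MI+TRD, at 379983 ± 11013 against 450798 ± 58012 for MI (mean ± SD of 6; two-sided exact permutation p = 0.00433). At median ratio scaling 16 of the 32 fold changes lay below 0 (48.4% of all genes did), and the median gene of the table moved from −0.14 to 0.01. The fold changes of single genes in the next paragraphs are on the deposited scale, where that median was −0.14.

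**Figure D1:**
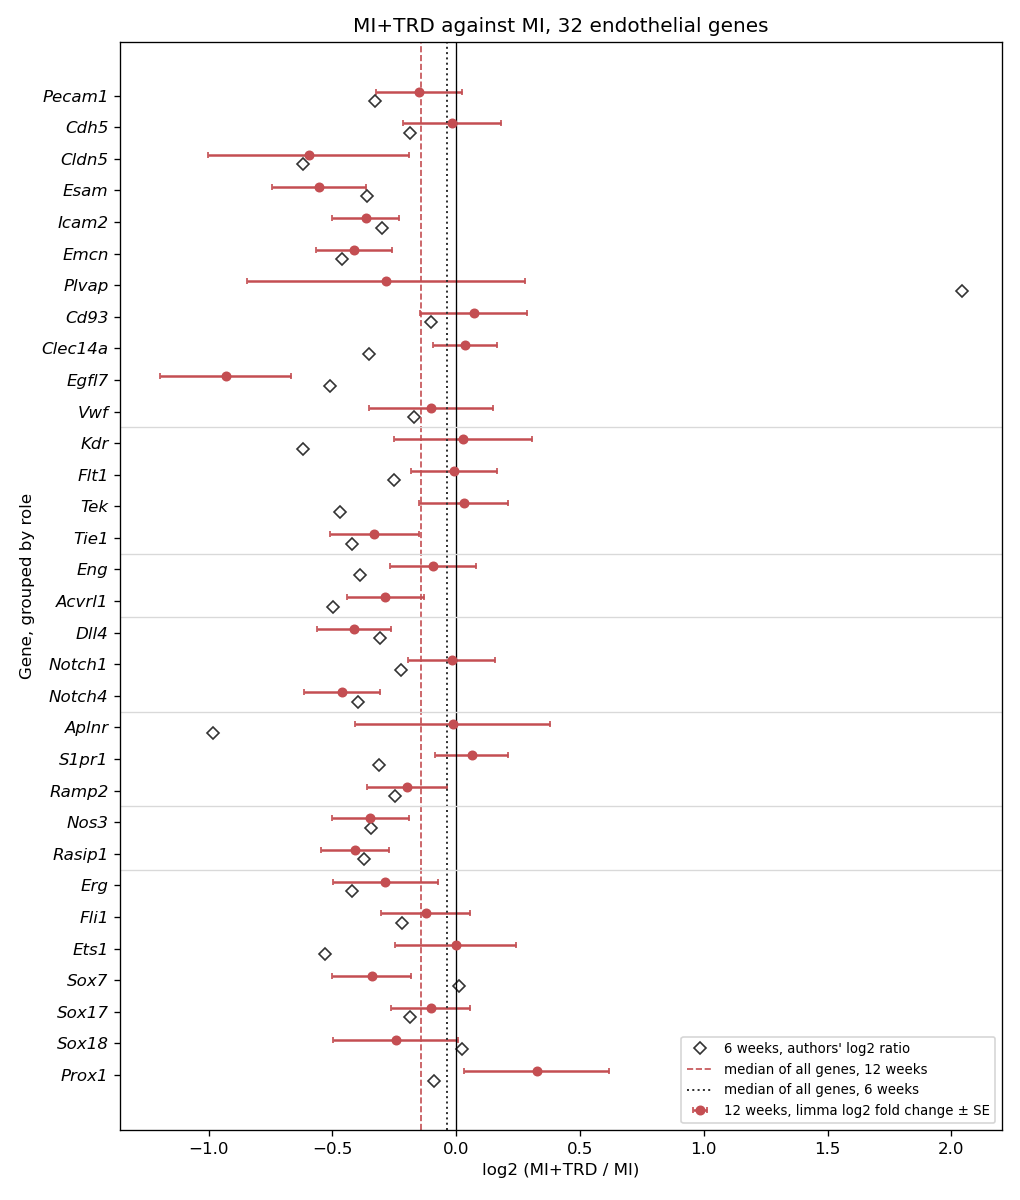
Log2 ratio of MI+TRD to MI for the 32 endothelial genes, grouped by role. Filled circles give the limma log2 fold change at 12 weeks with its SE (6 libraries a group), diamonds give the log2 of the ratio in the authors' deposited 6-week table, and the broken lines mark the medians of all genes (−0.14 at 12 weeks, −0.04 at 6 weeks). At 6 weeks 29 of the 32 diamonds lie below 0, and Plvap stands apart on the right.

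Among the surface and junction genes, Egfl7 had the smallest p of all 32. It encodes a protein that endothelial cells secrete into their matrix and that helps vessels form tubes (chromosome 3, 4034945 to 4044280, rn6). Its normalized count ran from 23.9 to 51.5 in MI (median 36.8) and from 9.69 to 28.3 in MI+TRD (median 19.2). MI+TRD replicates 1, 4 and 5 were lowest, at 12.6, 15.3 and 9.69, while replicates 2 and 3, at 28.3 and 26.1, lay above the 2 lowest MI libraries (23.9 and 24.2), and replicate 6, at 23.0, just below them. All 6 MI+TRD libraries lay below the MI mean, and the log2 fold change was −0.93 (SE 0.26; limma adjusted p = 0.133). In the authors' deposited 12-week table Egfl7 was lower at a ratio of 0.529 (false discovery rate 0.0435). It was the 1 gene of the 32 called there (3.12%, against 2.94% of all genes).

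Esam, an adhesion molecule of endothelial tight junctions and platelets (chromosome 8, 39997875 to 40008803), measured 57.9 to 98.8 in MI (median 79.1) and 30.8 to 68.2 in MI+TRD (median 55.5). In 5 of the 6 MI+TRD libraries it lay below the lowest MI library, and replicate 5 was lowest, with a log2 fold change of −0.55 (SE 0.19; limma adjusted p = 0.135). Cldn5, the claudin that seals endothelial contacts (chromosome 11, 86356292 to 86357719), was as far displaced and far more scattered. Its values ran from 44.6 to 185.5 in MI (median 85.2) and from 22.9 to 123.0 in MI+TRD (median 56.6), so the groups overlapped widely (log2 fold change −0.60, SE 0.40; limma adjusted p = 0.414).

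Emcn, an endothelial sialomucin of capillaries and veins, measured 19.8 to 39.2 in MI (median 27.6) and 18.1 to 23.4 in MI+TRD (median 21.0), with all 6 MI+TRD libraries below the MI mean and 2 below the lowest MI library. Icam2, an endothelial and leukocyte adhesion ligand, measured 20.3 to 28.8 (median 22.8) and 14.6 to 21.9 (median 19.0). Their log2 fold changes were −0.41 (SE 0.15; limma adjusted p = 0.150) and −0.37 (SE 0.14; limma adjusted p = 0.152). For Icam2, 4 of the 6 MI+TRD libraries lay below the lowest MI library.

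The adhesion and surface genes most used to stain endothelium had no such displacement. Cdh5, which encodes VE-cadherin, averaged 90.1 ± 13.2 in MI against 92.6 ± 30.9 with the device (SD, n = 6 each), a log2 fold change of −0.02 (SE 0.20). Pecam1, the CD31 adhesion molecule, averaged 102 ± 20.7 and 92.5 ± 21.8, and Vwf, the von Willebrand factor that binds platelets, 133 ± 31.5 and 130 ± 52.6. Cd93 and Clec14a, related lectin-like surface proteins that bind the matrix protein Mmrn2, had log2 fold changes of 0.07 (SE 0.22) and 0.04 (SE 0.13). Plvap, which forms the diaphragms of fenestrated vessels, was scarce, at 0.361 to 4.22 in MI and 0.150 to 4.20 in MI+TRD, or 2 to 106 reads per library, and its log2 fold change of −0.28 had an SE of 0.56.

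The 4 growth factor receptors differed among themselves. Tie1, the orphan partner of the angiopoietin receptor, measured 70.0 to 112 in MI (median 79.8) and 45.2 to 93.3 in MI+TRD (median 69.9), with 5 MI+TRD libraries under the mean of MI (log2 fold change −0.33, SE 0.18; limma adjusted p = 0.302). Tek, the angiopoietin receptor itself, averaged 62.6 ± 2.86 in MI against 66.8 ± 21.9 with the device (SD, n = 6 each). Its MI values spanned 58.7 to 65.9, and each MI+TRD library lay outside that span, 3 above it and 3 below it. Kdr, the main VEGF receptor, averaged 112 ± 26.0 and 122 ± 53.0, and Flt1, the VEGF receptor that acts largely as a decoy, 223 ± 51.5 and 222 ± 48.2.

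Of the Notch genes, the receptor Notch4 (chromosome 20, 4329794 to 4353786) and the ligand Dll4 (chromosome 3, 111135019 to 111144836), both largely restricted to endothelium, were lower at an unadjusted p. Notch4 measured 60.1 to 86.9 in MI (median 70.7) and 37.9 to 66.6 in MI+TRD (median 51.8), with 4 MI+TRD libraries below the lowest MI library (log2 fold change −0.46, SE 0.15; limma adjusted p = 0.133). Dll4 measured 21.9 to 38.7 (median 33.2) and 20.05 to 28.7 (median 22.9), with 2 MI+TRD libraries below the lowest MI library, MI replicate 6 (log2 fold change −0.41, SE 0.15; limma adjusted p = 0.146). For both, all 6 MI+TRD libraries lay below the MI mean. Notch1, which other cell types also use, averaged 92.0 ± 18.1 in MI against 91.9 ± 24.2 with the device (SD, n = 6 each).

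Rasip1 and Nos3, genes of lumen formation and vessel tone, were displaced to a like extent. Rasip1, a Ras-interacting protein needed for vessels to open a lumen (chromosome 1, 101610773 to 101621649), measured 32.8 to 54.2 in MI (median 41.7) and 27.9 to 41.2 in MI+TRD (median 30.7). All MI+TRD libraries but replicate 4 lay below the lowest MI library (log2 fold change −0.41, SE 0.14; limma adjusted p = 0.134). Nos3, the endothelial nitric oxide synthase (chromosome 4, 7322088 to 7342401), measured 57.1 to 96.9 (median 76.3) and 46.8 to 77.5 (median 55.0), with 4 MI+TRD libraries below the lowest MI library and replicate 4 above the MI mean (log2 fold change −0.35, SE 0.16; limma adjusted p = 0.212).

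The receptors of the BMP pathway and the G protein-coupled receptors passed in neither direction. Acvrl1, the ALK1 receptor for BMP9 and BMP10, measured 45.7 to 73.9 in MI (median 60.5) and 40.1 to 64.6 in MI+TRD (median 48.0; log2 fold change −0.29, SE 0.16; limma adjusted p = 0.298), and its co-receptor Eng averaged 162 ± 30.4 and 153 ± 40.1 (SD, n = 6 each). The apelin receptor gene Aplnr averaged 18.8 ± 9.54 and 19.8 ± 11.8, and the sphingosine-1-phosphate receptor gene S1pr1 109.6 ± 19.4 and 115 ± 21.1. Ramp2, which turns the calcitonin receptor-like receptor into a receptor for adrenomedullin, averaged 19.6 ± 3.41 and 17.1 ± 3.41.

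Of the 7 transcription factors, 1 was lower at an unadjusted p (19.1% of all genes were), and 0 were under the 5 other scalings and count models. Sox7 (chromosome 15, 47293699 to 47300461) measured 9.96 to 16.3 in MI (median 14.7) and 8.17 to 12.8 in MI+TRD (median 11.9), below the MI mean in all 6 MI+TRD libraries (log2 fold change −0.34, SE 0.16; limma adjusted p = 0.226). The other SoxF genes, Sox17 and Sox18, had −0.10 (SE 0.16) and −0.24 (SE 0.25). Of the ETS factors, Erg had −0.29 (SE 0.21), Fli1 −0.12 (SE 0.18) and Ets1 0.00 (SE 0.24). Fli1 and Ets1 are neighbours on chromosome 8, at 33543220 to 33661050 and 33816386 to 33879626. Prox1, the lymphatic regulator, was the gene with the highest fold change of the 32, 0.33 (SE 0.29; limma adjusted p = 0.556), at 3.22 to 7.35 in MI and 3.30 to 10.9 in MI+TRD.

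No gene of the 32 separated the groups fully: none had all 6 MI+TRD libraries below all 6 MI libraries (1.59% of all genes did) or above them (0.113%).

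**Figure D2:**
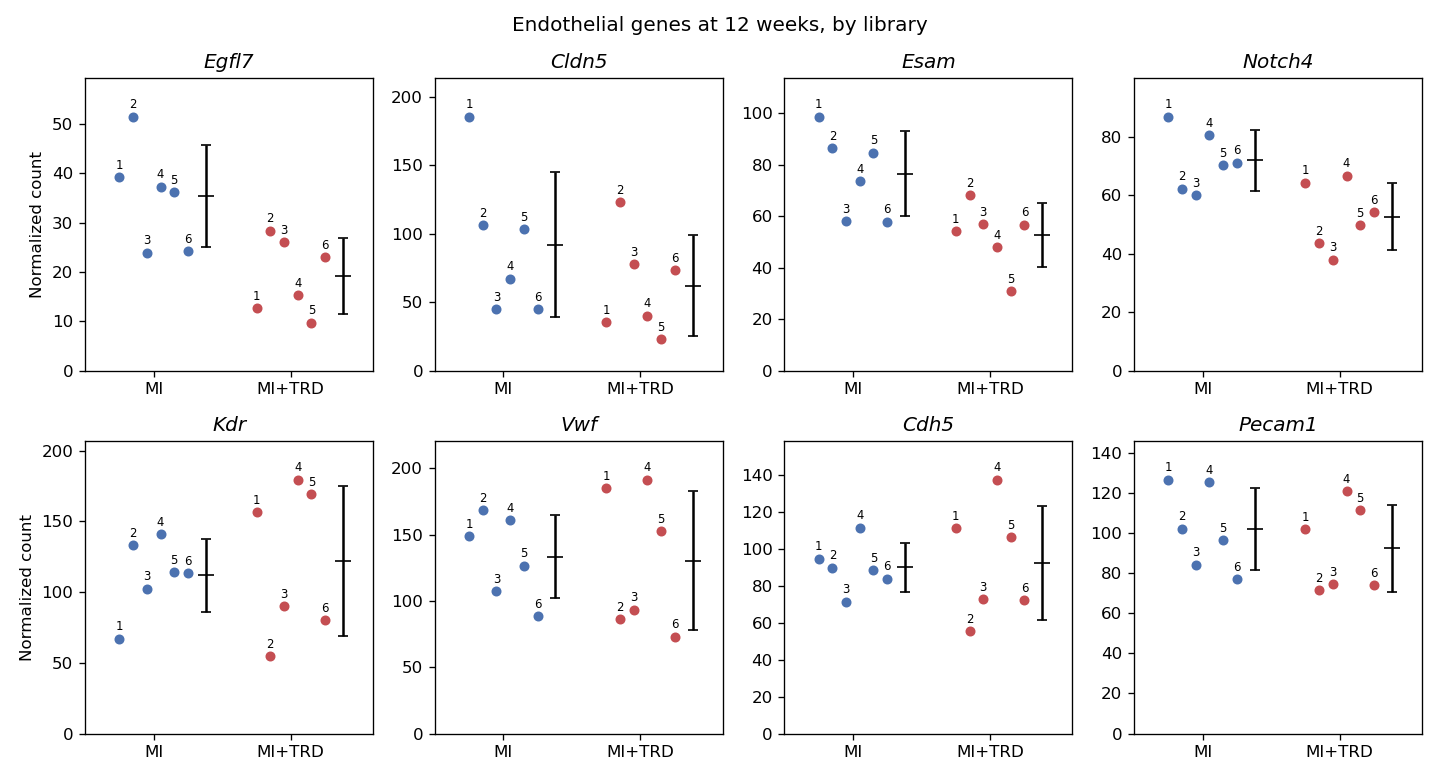
Normalized counts of 8 endothelial genes in each 12-week library, numbered by replicate, with mean and SD (bars) of 6 libraries a group and each axis starting at 0. In Egfl7, Cldn5 and Esam the MI+TRD replicates 1, 4 and 5 lie below replicates 2, 3 and 6, and in Kdr, Vwf, Cdh5 and Pecam1 they lie above them.

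Within MI+TRD the 32 genes did not move as one block. For 17 of them replicates 1, 4 and 5 all lay above replicates 2, 3 and 6 (53.1%, against 17.8% of all genes), and for Cldn5, Egfl7 and Esam all lay below (9.38%, against 19.3%). This division was seen in the data and follows no label, so it is described without a test. Kdr is an example of the first kind, at 156, 179.6 and 169 in replicates 1, 4 and 5 and at 54.5, 90.0 and 80.2 in replicates 2, 3 and 6. Its 6 MI values, 67.2 to 141, lay between the 2 sets or overlapped the lower one. Vwf, at 185, 191 and 152 against 86.1, 93.3 and 73.1, was arranged likewise. Cd93 measured 86.1, 109.7 and 101 against 37.7, 59.7 and 59.5, and Cdh5 111, 138 and 106 against 55.4, 72.8 and 72.2. Cldn5 showed the reverse, at 35.4, 40.1 and 22.9 in replicates 1, 4 and 5 and at 123, 77.8 and 73.2 in replicates 2, 3 and 6.

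The members' median deviation from the MI mean was −0.15 to 0.16 (log2) in MI+TRD replicates 1, 4 and 5 and −0.44 to −0.32 in replicates 2, 3 and 6. Relative to the median gene of the same library it was −0.06 to 0.33 and −0.30 to −0.18, against −0.16 to 0.12 in the MI libraries. Genomic span moved with this division in genes at large. Across the 10655 genes, Spearman's rho between span and deviation from the MI mean was 0.34 to 0.43 in replicates 1, 4 and 5 and −0.01 to 0.15 in replicates 2, 3 and 6, and across the 32 endothelial genes it was 0.35 to 0.41 and −0.45 to −0.02. These are descriptions across genes, which share their libraries and are not replicates. Cldn5, Egfl7 and Esam span 1428, 9336 and 10929 bases and Kdr, Vwf and Cdh5 59451, 130994 and 49213, but Clec14a, S1pr1 and Cd93, with 3144, 4209 and 4978 bases, were among the 17 that lay above. The part of span, Hba2 or genes without a read in the division was not tested.

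**Figure D3:**
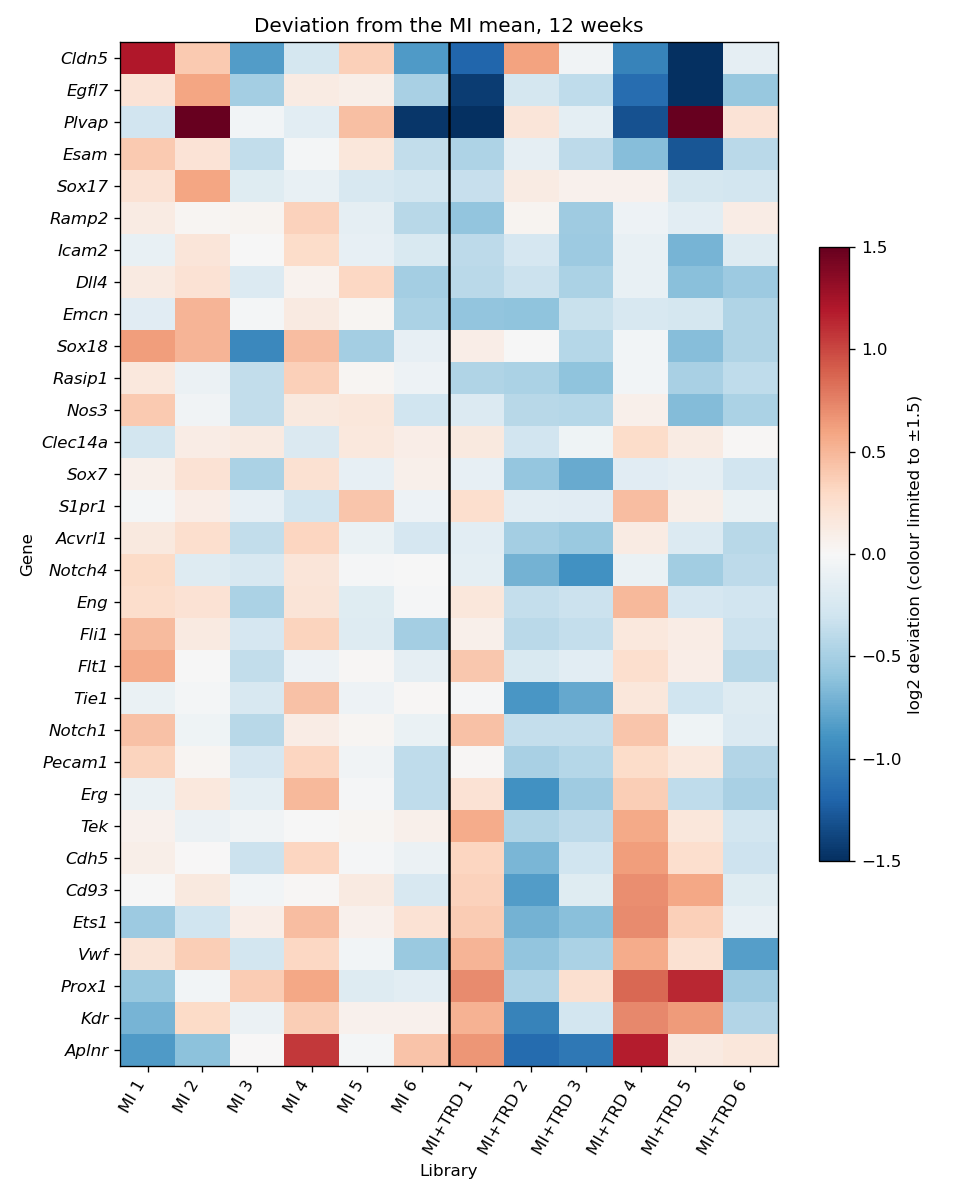
Deviation of each endothelial gene from its MI mean (log2, colour limited to ±1.5) in the 12 libraries at 12 weeks, with MI left and MI+TRD right of the line and genes ordered by the difference between MI+TRD replicates 1, 4 and 5 and replicates 2, 3 and 6. Replicates 2, 3 and 6 are mostly blue, while replicates 1, 4 and 5 run from blue at the top (mean deviation −1.33 for Cldn5) to red at the bottom (0.63 for Kdr and 0.65 for Aplnr).

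The upstream sequence of genes toward the ends of this ordering, where an entry was found, is shown because it places opposed genes side by side. RefSeq promoters (GRCr8, another build than the rn6 coordinates above) matched 16 of the 35 symbols, and the 2 lowest and 2 highest genes with an entry were Cldn5 and Egfl7, and Erg and Kdr. Each run gives the 250 bases before the annotated start on the gene's own strand, 5′ to 3′, with matches to the ETS motifs CCGGAAG or CAGGAAG on either strand in capitals.
Cldn5 (chr11:95718599-95718848, minus strand): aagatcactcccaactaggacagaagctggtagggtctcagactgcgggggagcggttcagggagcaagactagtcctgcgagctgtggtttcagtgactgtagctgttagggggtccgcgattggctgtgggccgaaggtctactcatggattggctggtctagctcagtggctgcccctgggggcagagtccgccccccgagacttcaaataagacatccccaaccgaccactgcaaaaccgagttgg
Egfl7 (chr3:29805381-29805630, plus strand): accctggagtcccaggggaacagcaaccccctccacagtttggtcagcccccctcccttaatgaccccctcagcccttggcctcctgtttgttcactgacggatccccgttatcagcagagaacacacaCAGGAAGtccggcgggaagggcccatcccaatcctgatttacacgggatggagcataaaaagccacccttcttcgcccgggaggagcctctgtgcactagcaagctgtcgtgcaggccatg
Erg (chr11:48251567-48251816, minus strand): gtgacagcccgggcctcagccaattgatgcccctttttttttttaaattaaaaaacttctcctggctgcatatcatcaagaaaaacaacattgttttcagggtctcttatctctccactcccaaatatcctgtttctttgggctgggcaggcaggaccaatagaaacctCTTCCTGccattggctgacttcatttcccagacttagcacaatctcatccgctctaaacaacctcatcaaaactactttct
Kdr (chr14:32571813-32572062, plus strand): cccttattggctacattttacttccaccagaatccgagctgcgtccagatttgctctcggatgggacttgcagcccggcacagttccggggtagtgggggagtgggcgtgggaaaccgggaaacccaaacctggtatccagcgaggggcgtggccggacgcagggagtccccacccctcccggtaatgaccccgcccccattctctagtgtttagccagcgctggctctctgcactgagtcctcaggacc
There was 1 match at each end of the ordering, in Egfl7 and in Erg, and none in Cldn5 or Kdr. CAGGAAG was found in 5 of the 16 promoters, those of Emcn, Egfl7, Erg, Plvap and Heg1, and in 10.2% of all 27457 promoters of that length. CCGGAAG was found in 0 of the 16 and in 7.74% of all, and the SOX motif ACAATGG in 1 of the 16, that of Nos3, and in 3.15% of all. The ETS motifs share the core GGAAG, which the SOX motif lacks, and a match is only a string of letters in this window.

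Leaving out MI+TRD replicates 1, 4 and 5 shows the level of replicates 2, 3 and 6 against MI. These are the libraries in which fewer of the 32 genes stood high, so the choice of libraries itself lowers the 17 genes counted above. The counts, fold changes and p-values that follow depend on that choice. They are a description and support nothing. In that fit 16 of the 32 had an unadjusted limma p below 0.05 and a lower value (9.68% of all genes did) and 0 a higher one (2.68% did). Fold changes lay below 0 for 30 of the 32 (69.8% of all genes), with Cldn5 and Plvap the exceptions, and the median was −0.40 against −0.15 over all genes. Kdr had −0.57 (SE 0.23), Cdh5 −0.43 (SE 0.16) and Pecam1 −0.45 (SE 0.17), and Egfl7 and Esam had −0.41 (SE 0.22) and −0.31 (SE 0.18). No gene in the table passed the limma adjustment (lowest adjusted p among the 32, 0.304). Replicate 6 had a leukocyte sum of 458, against 45.2 to 82.6 in MI. In this fit 5 of 6 pericyte genes were lower at an unadjusted p, 5 of 10 leukocyte genes and 6 of 7 epicardial genes were higher, and their part in the result was not tested.

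At 6 weeks the endothelial genes lay below the MI level in MI+TRD more often than genes at large, in the authors' deposited table of that comparison. The median ratio of the 32 was 0.792, against 0.973 over all 11283 genes, and 29 of the 32 ratios were below 1 (90.6%, against 57.0% of all genes). At an unadjusted p below 0.05, 11 of the 32 were lower in the authors' deposited table (34.4%, against 4.09% of all genes) and 1 was higher (against 4.42%). None passed a false discovery rate of 0.05, as was the case for every gene there (0% called). The table holds no spread per gene, so ratios are given with the authors' p.

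In the authors' deposited table, 3 of the 4 growth factor receptors were lower at an unadjusted p (4.09% of all genes were). The median ratio of the 4 was 0.735. Kdr had a ratio of 0.651 (least-squares means 146.5 in MI and 95.4 in MI+TRD), Tek 0.723 and Tie1 0.748 in the authors' deposited table (unadjusted p = 0.0187, 0.0134 and 0.0257), and Flt1 0.841. Aplnr, at 0.507, had the lowest ratio of the 32 in the authors' deposited table, with means of 26.1 in MI and 13.2 in MI+TRD (p = 0.0383). Emcn (0.726), Clec14a (0.784), Notch4 (0.761), Dll4 (0.808), Acvrl1 (0.709), Ets1 (0.693) and Rasip1 (0.773) made up the 11 with Kdr, Tek, Tie1 and Aplnr in the authors' deposited table.

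Plvap went the other way in the authors' deposited table at 6 weeks, with a ratio of 4.12 (means 2.27 in MI and 9.34 in MI+TRD; p = 0.00951, false discovery rate 0.393). Sox18, Sox7 and Plvap were the 3 genes with ratios above 1 in the authors' deposited table, Sox18 at 1.02 and Sox7 at 1.01. The most used endothelial markers had ratios of 0.797 for Pecam1, 0.878 for Cdh5 and 0.889 for Vwf in the authors' deposited table, with unadjusted p of 0.0895, 0.413 and 0.624. Egfl7, Esam and Cldn5 had ratios of 0.701, 0.780 and 0.652 in the authors' deposited table, at p of 0.0706, 0.135 and 0.283.

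Other tissue markers differed at 6 weeks in the same authors' deposited table. All 10 leukocyte markers had ratios above 1, 7 of them at an unadjusted p below 0.05 (median ratio 2.49). So did 8 of 9 fibroblast markers, 6 of them at that p (median ratio 1.76). Across all genes there, 4.42% were higher at that p, 4.09% were lower and 57.0% had ratios below 1. The 9 cardiomyocyte markers all had ratios below 1 in the authors' deposited table, none of them at that p (median ratio 0.876). The part of a changed mix of cells in the endothelial ratios was not tested.

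The 2 comparisons have no library in common, per the labels, and the authors' deposited tables can be set side by side. In both, 20 of the 32 genes had a ratio below 1 (62.5%, against 42.3% of all genes). Dll4, Emcn, Notch4, Rasip1 and Tie1 were lower at an unadjusted p below 0.05 in both of the authors' deposited tables (15.6% of the 32, against 1.41% of all genes). At 12 weeks their ratios in the authors' deposited table were 0.730, 0.725, 0.721, 0.735 and 0.798. None of these genes passed an unadjusted p of 0.05 at 12 weeks with median ratio scaling, equal column totals, edgeR or DESeq2. With quantile normalization Notch4 and Rasip1 passed it. At 12 weeks as a whole, 10 of the 32 were lower at that p in the authors' deposited table (31.2%, against 22.0% of all genes), 0 were higher (against 2.12%), 23 had a ratio below 1 (71.9%, against 67.3%) and the median ratio was 0.891 against 0.896 for all genes. Kdr, Tek and Aplnr, at 1.08, 1.06 and 1.03 in the authors' deposited 12-week table, lay on the other side of 1 from their 6-week ratios. So did Prox1 (1.33), Cd93 (1.10), S1pr1 (1.03), Ets1 (1.02), Cdh5 (1.02) and Clec14a (1.01) in the authors' deposited table. Whether a gene's ratio differed between 6 and 12 weeks was not tested, because the 6-week table gives group means alone.

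**Figure D4:**
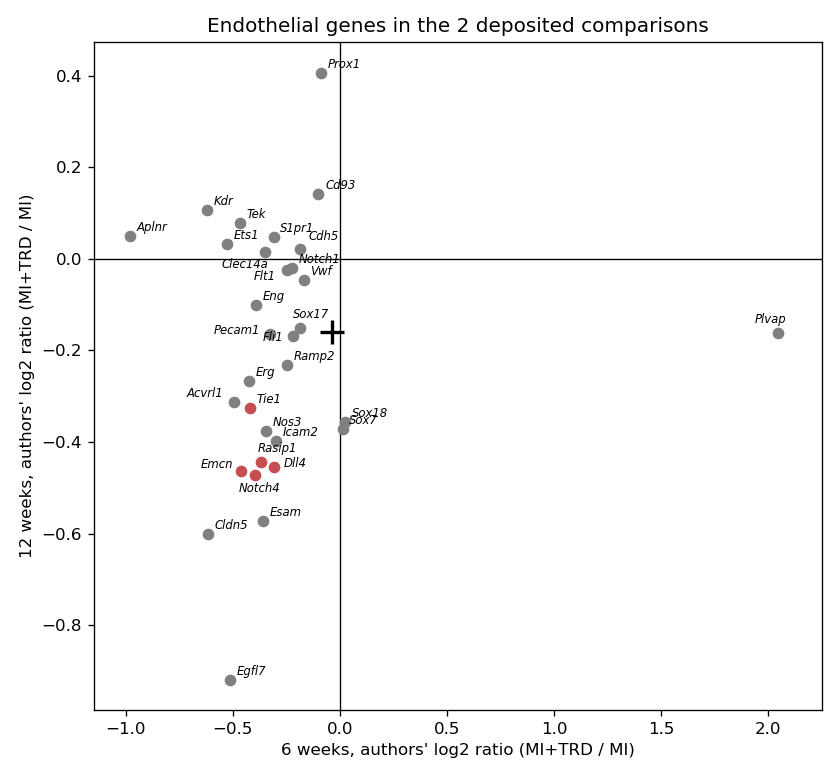
Log2 ratio of MI+TRD to MI for the 32 endothelial genes at 6 weeks (horizontal) and 12 weeks (vertical) in the authors' deposited tables. Red points mark Dll4, Emcn, Notch4, Rasip1 and Tie1, lower at an unadjusted p below 0.05 in both, and the cross marks the median of all genes (−0.04 and −0.16). Plvap lies far to the right and Egfl7 at the bottom.

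Partners of these genes were read from lists of their pathways. Of 10 ligands and co-receptors of the VEGF and angiopoietin receptors, 2 were lower at an unadjusted p at 12 weeks and 0 higher. This count and those of the other pathway lists below are to be read against the 19.1% of all genes that were lower and the 2.80% that were higher. Vegfa, the main ligand of Kdr, averaged 614 ± 59.4 in MI against 428 ± 81.4 with the device (SD, n = 6 each), a log2 fold change of −0.54 (SE 0.15; limma adjusted p = 0.133). In the authors' deposited 6-week table its ratio was 0.679 (p = 0.0129). Vegfb, a ligand of Flt1, had −0.31 (SE 0.12; limma adjusted p = 0.164). Of 9 Notch partners and targets 1 was higher and 1 lower: Rbpj, the DNA-binding partner of the Notch intracellular domain, had 0.49 (SE 0.17), and Heyl, a Notch target, had −0.34 (SE 0.16). Of 10 partners and targets of the ALK1 receptor 2 were lower, Id1 at −0.57 (SE 0.22) and Id3 at −0.60 (SE 0.23), both direct targets of BMP signalling. Of 8 apelin, adrenomedullin and sphingosine-1-phosphate partners 1 was lower, the sphingosine-1-phosphate exporter gene Spns2 at −0.36 (SE 0.15). Of 6 nitric oxide partners 1 was lower, Ddah2, at −0.48 (SE 0.15). Of 18 junction and Rap1 partners 3 were lower and 1 higher, with the junction gene Jam3 at −0.48 (SE 0.16) and the flow-responsive factor gene Klf2 at −0.48 (SE 0.21). No gene of these lists passed the limma adjustment, and under the 5 other scalings and count models Vegfb, Heyl, Id1, Spns2 and Klf2 passed an unadjusted p of 0.05 in none, Id3 in 1, Vegfa and Jam3 in 3, Ddah2 in 4 and Rbpj in 5. The medians of these pathway lists, −0.15 to 0.02, were all above 0 with median ratio scaling (0.01 to 0.17).

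Markers of endothelial subtypes were read the same way. Of 9 capillary genes 5 were lower at an unadjusted p at 12 weeks and 0 higher, with a median log2 fold change of −0.46 (19.1% of all genes were lower). With median ratio scaling 3 were lower and 1 higher, and the median was −0.30 (8.24% of all genes were lower and 7.49% higher). Tcf15, a capillary transcription factor, averaged 21.5 ± 3.58 in MI libraries and 10.97 ± 2.97 with the device (SD, n = 6 each), and Fabp4, a fatty acid carrier of heart capillaries, 152 ± 30.8 and 96.3 ± 24.0. Their log2 fold changes were −0.99 (SE 0.19) and −0.67 (SE 0.18; limma adjusted p = 0.133 for both). In the authors' deposited 6-week table, lower values at that p were found for 4 of the 9 (4.09% of all genes there). Tcf15 had a ratio of 0.599 and Fabp4 of 0.621. Under the 5 other scalings and count models tried, Tcf15 kept fold changes of −0.87 to −0.76 and Fabp4 of −0.51 to −0.43, each at an unadjusted p below 0.05 in all 5. Of 7 arterial genes 2 were lower at 12 weeks, the connexin gene Gja4 at −0.53 (SE 0.15) and the guidance factor gene Sema3g at −0.72 (SE 0.19). Fold changes lay below 0 for 4 of the 7 (67.8% of all genes). The median of the 7 was −0.09, and 0.07 with median ratio scaling. Of 5 venous and activation genes 0 passed in either direction at 12 weeks. At 6 weeks 2 were higher at an unadjusted p in the authors' deposited table (4.42% of all genes were). Of 5 lymphatic genes 1 was lower, the chemokine gene Ccl21 at −1.73 (SE 0.59), and under the 5 other settings Ccl21 had −1.61 to −0.92 and passed in 3, while with edgeR and with DESeq2 the list had 0 lower and 1 higher. Of 4 endocardial genes 0 passed in either direction, and 1 was higher in each of the 5 other settings. Platelet genes were scarce, with the 3 measured summing to 2.71 to 10.98 per library, and Pf4 was at 0 reads in MI+TRD replicate 1. Gp1bb, a subunit of the platelet receptor for von Willebrand factor, averaged 4.72 ± 2.75 in MI libraries and 1.39 ± 0.483 with the device, a log2 fold change of −1.48 (SE 0.36; limma adjusted p = 0.133), and 1 platelet gene was lower in each of the 5 other settings. The part of platelet RNA in Pecam1, Vwf and Esam was not tested.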

How the data were processed

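Poly(A) RNA of rat myocardium was sequenced on an Illumina instrument, per the labels' protocols. Partek and rn6 are named in the submitters' processing notes. For the aligner, counter, annotation, strand setting, scaling and model the entry is: not given in the sources used here. The authors deposited a normalized signal per gene and library at 12 weeks, and for each week a comparison table with p-values, FDR and least-squares means. Its linear ratios of MI+TRD to MI are also as the authors deposited them. Within a library nearly all low deposited values were whole multiples of the smallest value (97.2 to 98.6%, within 0.1 of a whole number, up to 20 steps). Reads were recovered as that multiple minus 1, on the assumption that the smallest value stands for a gene at 0. The sources used here do not state this, and all read numbers given, with those of genes without a read, rest on it. Totals of 7197118 to 10304156 recovered reads limit the precision of scarce genes.

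Genes with a mean of at least 0.415 deposited units (10655 of 10723) were tested with limma 3.58.1 (R 4.3.3, trend, Benjamini-Hochberg) on log2(value + 0.208), with 6 libraries a group. Alternatives were edgeR 4.0.16 and DESeq2 1.42.0 on recovered reads, other scalings, pseudocounts and filters, library weights, a replicate block and left-out libraries. The fit was tested on simulated data. Since no label names an animal, a p-value reflects only how far these samples scatter, which may be technical. The endothelial genes and all lists were chosen with earlier results of these data known. Each measured gene was named, the 10 with the smallest unadjusted limma p in full, and up to 2 genes of each other list. The division of MI+TRD libraries was noticed in the data.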

Additional observations from a re-analysis of the deposited data

Results flagged for a closer look

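Each of the 32 endothelial genes was examined in both groups at 12 weeks, 64 groups of 6 libraries in all, for a library set apart from the other 5 by more than Dixon's 95% critical share of the group's range. Chance alone marks about 5% of such groups, and 4 of the 64 were marked. Plvap stood at 4.20 in MI+TRD replicate 5, while the rest of that group ran from 0.150 to 1.59. Flt1 stood at 321 in MI replicate 1, against 170 to 223 in the other MI libraries. Tie1 stood at 112 in MI replicate 4, against 70.0 to 83.7. Rasip1 stood at 41.2 in MI+TRD replicate 4, against 27.9 to 32.4.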

How the results depend on the processing

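Across 25 alternatives no endothelial gene passed an adjusted p of 0.05 at 12 weeks, and DESeq2 was the 1 setting that called any gene in the table (21 genes). The count of endothelial genes lower at an unadjusted p was 9 as reported (19.1% of all genes were lower). It was 1 with median ratio scaling, equal column totals, edgeR and DESeq2 (8.24%, 3.87%, 6.98% and 7.19% of all genes). With quantile normalization it was 4 (9.81% of all genes). Without MI+TRD replicates 1, 4 and 5 it was 16 (9.68% of all genes). That choice of libraries itself lowers 17 of the genes, so the 16 is a description and supports nothing. With 1 library left out the count was 7 to 11 (13.4% to 22.0% of all genes were lower). The number of genes in the table past an adjusted p stayed at 0 there. With the trend over gene span removed, the count was 7 (16.5% of all genes were lower). Egfl7 was the gene left in the 4 settings with 1. The median of the 32 log2 fold changes, −0.18 as reported, was 0.060 with equal column totals, 0.025 with edgeR, 0.023 with DESeq2, −0.40 without replicates 1, 4 and 5, and −0.25 to −0.13 with 1 library left out. At 6 weeks 11 genes were lower and 1 was higher at the authors' unadjusted p (4.09% and 4.42% of all genes). At the false discovery rate 0 passed (0% of all genes). With the replicate number as a block, 11 were lower at 12 weeks (17.2% of all genes were) and 0 genes in the table were called. Of 6 MI libraries 4 correlated best with their own number, a hint of pairing from the data. The correlations of same-numbered libraries ran from −0.33 to 0.33 and not all were positive, and no label ties the numbers, so they were not taken as pairs.

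The log2 fold changes of 12 of the 32 genes kept their sign in all 25 alternatives (Esam, Icam2, Emcn, Egfl7, Tie1, Acvrl1, Dll4, Notch4, Nos3, Rasip1, Erg and Sox7), and those of 20 did not. None of the 20 was called, and the cause was not tested. With median ratio scaling the reversed values were Pecam1 0.0097, Cdh5 0.15, Vwf 0.061, Flt1 0.15, Eng 0.068, Notch1 0.14, Aplnr 0.14, Fli1 0.037, Ets1 0.16 and Sox17 0.058. With equal column totals they were Pecam1 0.085, Cdh5 0.22, Vwf 0.14, Flt1 0.23, Eng 0.14, Notch1 0.22, Aplnr 0.22, Ramp2 0.035, Fli1 0.11, Ets1 0.23 and Sox17 0.13. With quantile normalization they were Pecam1 0.0025, Cdh5 0.15, Vwf 0.098, Flt1 0.22, Eng 0.090, Notch1 0.13, Aplnr 0.12, Fli1 0.0012, Ets1 0.17 and Sox17 0.023. With edgeR they were Pecam1 0.026, Cdh5 0.21, Plvap 0.024, Vwf 0.15, Flt1 0.15, Eng 0.088, Notch1 0.16, Aplnr 0.25, Fli1 0.026, Ets1 0.21 and Sox17 0.037. With DESeq2 they were Pecam1 0.032, Cdh5 0.22, Plvap 0.014, Vwf 0.15, Flt1 0.16, Eng 0.095, Notch1 0.17, Aplnr 0.26, Fli1 0.032, Ets1 0.22 and Sox17 0.044. Without MI+TRD replicates 1, 4 and 5 they were Cldn5 0.14, Plvap 0.081, Cd93 −0.40, Clec14a −0.11, Kdr −0.57, Tek −0.37, S1pr1 −0.14 and Prox1 −0.25. With library weights they were Cd93 −0.048, Clec14a −0.067, Kdr −0.10, Flt1 0.0056, Tek −0.097, S1pr1 −0.032 and Sox17 0.041. With the trend over gene span removed, an alternative chosen after seeing the data, they were Kdr −0.10, Tek −0.12, Aplnr 0.20, Ramp2 0.073, Sox17 0.073 and Sox18 0.027. With 1 library left out, the genes that changed sign ranged from −0.14 to 0.12 (Cdh5), −0.64 to 0.085 (Plvap), −0.054 to 0.25 (Cd93), −0.019 to 0.10 (Clec14a), −0.23 to 0.044 (Vwf), −0.11 to 0.23 (Kdr), −0.091 to 0.10 (Flt1), −0.078 to 0.13 (Tek), −0.11 to 0.069 (Notch1), −0.25 to 0.21 (Aplnr), −0.017 to 0.15 (S1pr1), −0.14 to 0.14 (Ets1) and −0.16 to 0.015 (Sox17).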
